A study of Mus musculus with 6 samples.

Results

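The 9 genes Pecam1, Cdh5, Kdr, Tek, Cldn5, Emcn, Egfl7, Flt1, and Sele are widely used markers of endothelium, and their transcripts were followed through RNA-Seq libraries of sorted muscle stem cells (MuSCs). They were selected by gene name from the 49671 genes of the deposited tables, and all 9 were present. The choice was made with their read counts in these libraries known, so their levels and their differences between treatments are given as a description. The comparison asks how much endothelial RNA remained in the sorted cells and whether it differed between mice given resolvin D1 (RvD1), a lipid mediator made from docosahexaenoic acid, and mice given vehicle.

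Libraries came from female C57BL/6 mice, 4 to 6 months old, of which 3 were given RvD1 and 3 vehicle. All 6 mice had both tibialis anterior (TA) muscles injured with 50 μL of 1.2% BaCl2, and MuSCs were taken at day 3. RvD1 was injected IP each day at a dose of 100 ng, and the vehicle was 0.1% ethanol. Both TA muscles of a mouse were pooled into 1 library. Sorting was for CXCR4 and β1-integrin and against Sca-1, CD45, CD11b, and Ter119. The sample labels add CD31, the protein made by Pecam1, to the excluded markers, whereas the antibodies named in the study's Methods do not include it, so whether endothelial cells were gated out on CD31 is uncertain. No library of unsorted muscle or of endothelial cells was compared here. Fewer endothelial cells in a sorted sample and less RNA per endothelial cell cannot be told apart in these libraries.

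Endothelial cells line blood vessels, and in skeletal muscle capillaries run along the myofibers close to the stem cells. The cells are joined by VE-cadherin (Cdh5), PECAM-1, and claudin-5 (Cldn5), and they respond to VEGF through VEGFR2 (Kdr) and VEGFR1 (Flt1) and to angiopoietins through TIE2 (Tek). E-selectin (Sele) is placed on the endothelial surface during inflammation, where it captures rolling leukocytes. ETS transcription factors, which bind sites with a GGAA core, take part in the expression of many endothelial genes.

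Positions on GRCm38 from GENCODE M21 place all 9 as protein-coding genes on different parts of the genome. Pecam1 (ENSMUSG00000020717) spans chr11:106654217-106750628, Cdh5 chr8:104101625-104144511, Tek chr4:94739289-94874976, and Cldn5 chr16:18776847-18778262. Kdr, at chr5:75932827-75978458, and Flt1, at chr5:147561604-147726011, share a chromosome but lie far apart on it. Emcn lies at chr3:137341067-137432185, Egfl7 at chr2:26580014-26593120, and Sele at chr1:164048234-164057677.

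Expected counts totaled 17962025 to 28149176 per library with RvD1 and 16148026 to 18755643 with vehicle, and 3 counts corresponded to between 0.107 and 0.186 CPM, the count divided by the library's total and scaled. The 10 MuSC markers had a summed level of 3819 ± 410 TPM in the RvD1 group and 3449 ± 191 TPM in the vehicle group (SD, n = 3 each), where TPM is a level scaled for transcript length and library. Myog, a transcription factor of differentiating myoblasts, led them at 1073 ± 269 and 881 ± 81.8 TPM. The 9 endothelial genes together summed to 14.2 ± 3.01 TPM in the RvD1 group and 17.7 ± 9.06 TPM in the vehicle group (SD, n = 3 each).

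The 3 junction genes were scarce and uneven between mice. Pecam1, which encodes an adhesion receptor at cell borders, had 53, 76, and 2 expected counts in replicates 1, 2, and 3 of the RvD1 group, and 95, 22, and 132 in those of the vehicle group. Vehicle replicates 1 and 3 were the highest and RvD1 replicate 3 the lowest, and the vehicle group overlapped the RvD1 group through its replicate 2. In TPM the level of Pecam1 was 1.01 ± 0.662 in the RvD1 group and 2.51 ± 1.52 in the vehicle group (SD, n = 3 each).

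Cdh5, which encodes the cadherin of endothelial adherens junctions, had 14, 28, and 2 expected counts with RvD1 and 21, 1, and 48 with vehicle, in the same order of replicates. Vehicle replicate 2 and RvD1 replicate 3 were both at or under 3 counts, so the lowest and the next lowest library belonged to different treatments. Its level was 0.293 ± 0.211 TPM in the RvD1 group and 0.527 ± 0.500 TPM in the vehicle group (SD, n = 3 each). An antisense gene, Gm29682, overlaps Cdh5, and as the libraries do not keep strand their reads cannot be told apart.

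Cldn5, which encodes the main claudin of endothelial tight junctions, had 8, 20, and 19 expected counts with RvD1 and 24, 6, and 38 with vehicle. Vehicle replicate 3 was highest, and RvD1 replicate 3, which was lowest for Pecam1, was highest of its own group in TPM. The level of Cldn5 was 0.873 ± 0.425 TPM in the RvD1 group and 1.52 ± 1.01 TPM in the vehicle group (SD, n = 3 each), with overlapping groups.

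The receptor genes fell into different patterns. Kdr, which encodes VEGFR2, the main signaling receptor for VEGF-A in endothelium, had 23, 31, and 4 expected counts with RvD1 and 68, 5, and 68 with vehicle. Vehicle replicates 1 and 3 stood above all RvD1 libraries, and vehicle replicate 2 was beside RvD1 replicate 3, at 0.281 CPM (95% Poisson interval 0.0913 to 0.656) against 0.223 CPM (0.0607 to 0.570). The level of Kdr was 0.243 ± 0.134 TPM in the RvD1 group and 0.737 ± 0.577 TPM in the vehicle group (SD, n = 3 each).

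Flt1, which encodes VEGFR1, a high-affinity receptor that also binds VEGF-A in soluble form, had 66, 66, and 43 expected counts with RvD1 and 50, 35, and 64 with vehicle. No library was near the floor, and the groups overlapped widely. Its level was 1.40 ± 0.365 TPM in the RvD1 group and 1.40 ± 0.691 TPM in the vehicle group (SD, n = 3 each).

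Tek, which encodes the angiopoietin receptor TIE2, had 298, 129, and 100 expected counts with RvD1 and 141, 86, and 136 with vehicle. RvD1 replicate 1 was the highest library, and it was the highest for none of the other 8 genes. The level of Tek was 3.26 ± 1.72 TPM in the RvD1 group and 2.55 ± 0.566 TPM in the vehicle group (SD, n = 3 each), with overlapping groups.

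Emcn encodes endomucin, a sialomucin of capillary and venous endothelium, and had 15, 21, and 1 expected counts with RvD1 and 17, 7, and 31 with vehicle. RvD1 replicate 3 was again lowest and vehicle replicate 3 highest. The level was 0.633 ± 0.431 TPM in the RvD1 group and 1.38 ± 1.10 TPM in the vehicle group (SD, n = 3 each), and the groups overlapped.

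Egfl7 encodes a secreted protein of the vessel wall and is the host gene of miR-126. It had 64, 74, and 42 expected counts with RvD1 and 54, 30.4, and 93.8 with vehicle. All libraries were well above the floor, and both the lowest and the highest library were vehicle. The level of Egfl7 was 6.48 ± 1.51 TPM in the RvD1 group and 6.34 ± 3.24 TPM in the vehicle group (SD, n = 3 each), whereas its log2 fold change in counts was -0.37. Egfl7 overlaps Gm20532 and Mir126a on its own strand and Mir126b and Agpat2 on the other, which makes its counts less certain. RSEM left fractional counts of Egfl7 in 2 libraries, vehicle replicates 2 and 3, where Gm20532 had 1.65 to 2.62 counts.

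Sele was above the floor of 3 counts in 2 of the 6 libraries. It had 2, 1, and 0 expected counts with RvD1 and 26, 0, and 40 with vehicle. Those libraries were vehicle replicates 1 and 3, and the other 4 were below the floor. In CPM, vehicle replicate 1 stood at 1.61 (95% Poisson interval 1.05 to 2.36) and vehicle replicate 3 at 2.13 (1.52 to 2.90), while 0 counts in vehicle replicate 2 and RvD1 replicate 3 allow up to 0.207 and 0.205 CPM, respectively. Over the pooled libraries 66 counts against 3 gave a ratio of vehicle to RvD1 of 28.2 (9.23 to 140), an interval that covers counting error only and not the difference between mice.

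**Figure D1:**
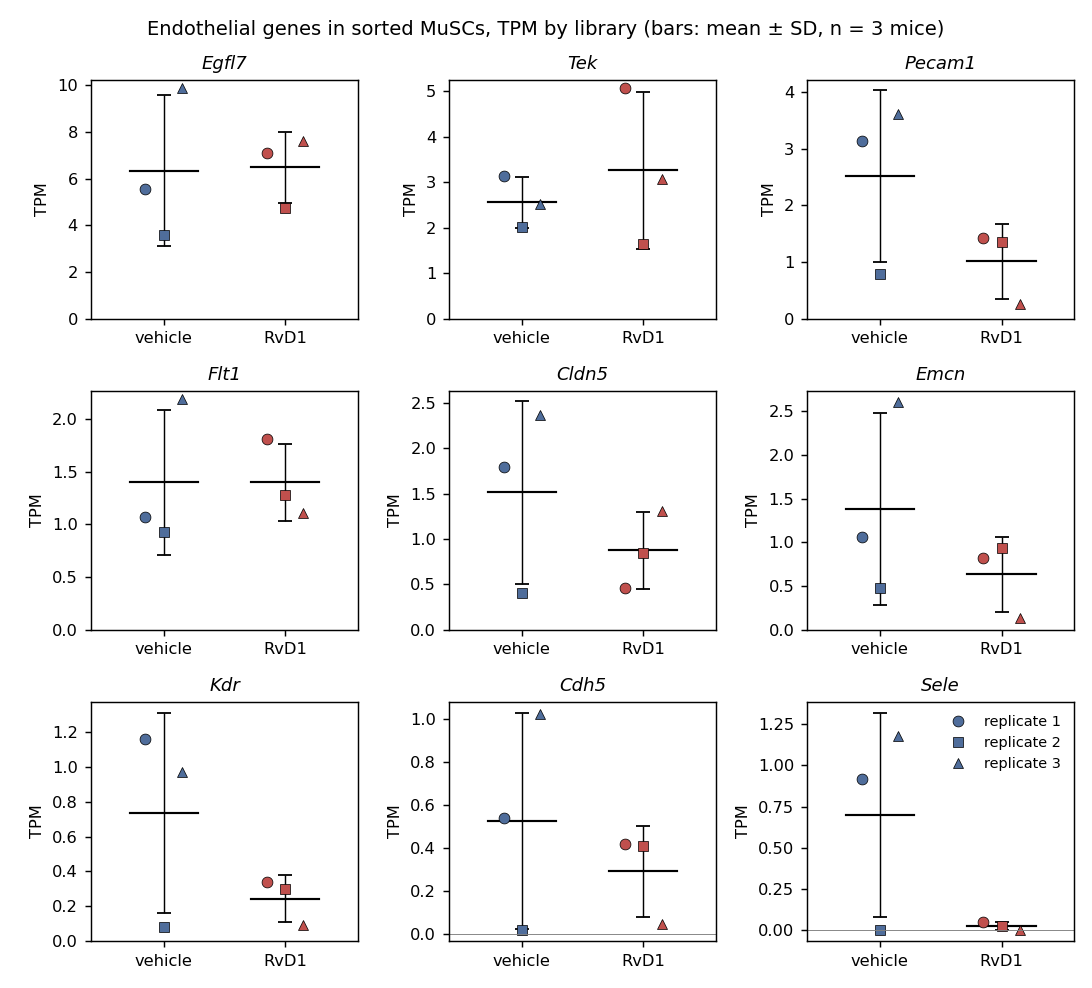
Level in TPM of each of the 9 endothelial genes in the 3 vehicle and 3 RvD1 libraries, with 1 panel per gene and its own linear axis. Marker shapes give the replicate number, horizontal lines the group mean, and bars the SD. For Pecam1, Kdr, Cdh5, and Sele, vehicle replicate 2 lies apart from vehicle replicates 1 and 3, and for Kdr and Cdh5 it is the lowest of the 6 libraries.

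Per length, the genes ranked over all 6 libraries in the order Egfl7, Tek, Pecam1, Flt1, Cldn5, Emcn, Kdr, Cdh5, and Sele. The mean level ran from 6.41 ± 2.26 TPM (SD, n = 6) for Egfl7 and 2.91 ± 1.21 TPM for Tek to 0.41 ± 0.366 TPM for Cdh5 and 0.362 ± 0.540 TPM for Sele. Egfl7 was above Tek in 6 of 6 libraries, by 3.51 ± 2.17 TPM (SD). Every other pair of neighbors in this order differed by less than the SD of its difference. Among the 26766 genes with a mean above 0 TPM, Egfl7 ranked 9470 and Sele 16316.

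The genes differed in how widely they varied between mice of the same treatment. The ratio of the highest to the lowest vehicle library, in CPM, was 45.5 (95% counting interval 7.79 to 1834) for Cdh5, 15.0 (6.11 to 47.6) for Kdr, 6.00 (2.52 to 17.4) for Cldn5, 5.69 (3.60 to 9.38) for Pecam1, and 4.20 (1.81 to 11.3) for Emcn. For Sele it was at least 12.6 against the floor of 3 counts. The same ratio was only 2.92 (1.95 to 4.64) for Egfl7, 1.81 (1.37 to 2.39) for Tek, and 1.73 (1.13 to 2.70) for Flt1.

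In the RvD1 group the ratio of the highest to the lowest library was 24.2 (6.49 to 204) for Pecam1, 13.4 (2.16 to 554) for Emcn, 8.93 (2.25 to 77.4) for Cdh5, and 4.95 (1.75 to 19.3) for Kdr. It was 3.04 (2.47 to 3.77) for Tek, 2.83 (1.18 to 7.46) for Cldn5, 1.32 (0.922 to 1.88) for Flt1, and 1.28 (0.855 to 1.94) for Egfl7. Flt1 and Egfl7 thus had intervals that include 1 in this group, and their RvD1 libraries could not be told apart at this depth.

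Among the 14494 genes that passed the count filter and were tested, a range of over 4-fold between vehicle libraries was found for 2.52% and between RvD1 libraries for 3.49%. Of the 8 endothelial genes tested, 5 passed that range with vehicle (Pecam1, Cdh5, Kdr, Cldn5, and Emcn) and 4 with RvD1 (the same genes without Cldn5). Sele had too few counts to be tested. Low counts widen such ranges, so the spread was also set against genes of similar abundance. The biological coefficient of variation is the spread between replicates beyond counting error. Each gene's value is an edgeR estimate that is already drawn partly toward the trend. This coefficient was 0.717 for Pecam1 against 0.299 on the trend at its abundance. It was 0.800 against 0.366 for Cdh5, 0.684 against 0.342 for Kdr, and 0.572 against 0.372 for Emcn. For Cldn5 it was 0.501 against 0.365, for Tek 0.355 against 0.240, and for Egfl7 0.327 against 0.305. For Flt1 it was 0.254 against 0.312, below the trend. The ratio of a gene's estimate to its trend exceeded that of 99.3% of the genes tested for Pecam1, 99.1% for Cdh5, 98.7% for Kdr, and 95.8% for Emcn. It exceeded that of 95.0% for Tek, 93.3% for Cldn5, 79.9% for Egfl7, and 30.2% for Flt1, so by this measure Tek was about as uneven as Emcn and Cldn5.

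Gene by gene, RvD1 replicate 3 and vehicle replicate 2 were most often the lowest library. The summed TPM of the 9 genes, in which Egfl7 and Tek weigh most, was 17.5, 11.6, and 13.6 with RvD1 and 18.4, 8.28, and 26.4 with vehicle, so by this sum RvD1 replicate 2 was below RvD1 replicate 3. In CPM each was the lowest of the 6 for 4 of the 9 genes, with Sele, at 0 in both, counted to RvD1 replicate 3, and RvD1 replicate 2 was lowest for Tek. Vehicle replicate 3 was highest for 7 of 9, the exceptions being Tek and Kdr. Within the groups, vehicle replicate 2 was the lowest vehicle library for 8 of the 8 endothelial genes tested, against 27.9% of all genes tested. RvD1 replicate 3 was the lowest RvD1 library for 5 of the 8 (Pecam1, Cdh5, Kdr, Emcn, and Egfl7), against 31.7% of all genes tested. Both held together for 5 of the 8 and for 1305 of the 14494. The libraries were singled out after their values were seen, and what sets them apart was not tested.

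RvD1 replicate 3 and vehicle replicate 2 held 17962025 and 17779765 expected counts in all, and vehicle replicate 1, which was among the highest for Pecam1, Kdr, and Sele, held 16148026. The summed MuSC markers were 4266 TPM in RvD1 replicate 3, the highest of the 6 libraries, 3586 TPM in vehicle replicate 2, and 3231 TPM in vehicle replicate 3, the lowest of the 6. Whether depth or MuSC share had a part in the endothelial levels was not tested.

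**Figure D2:**
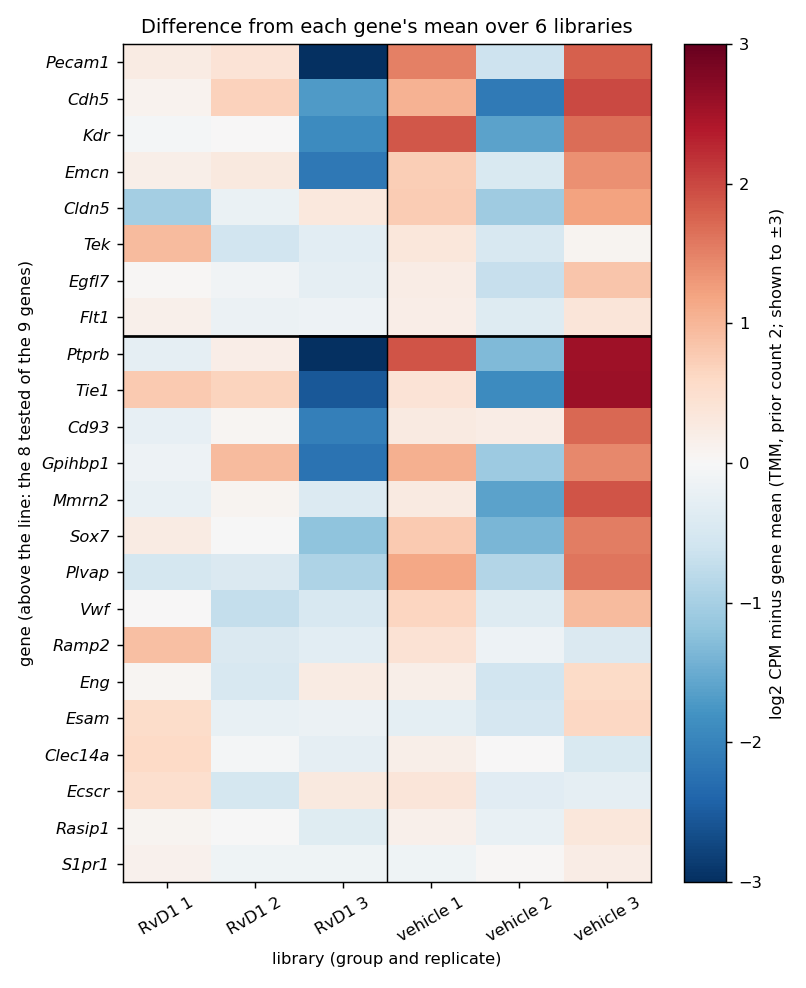
Difference of each gene's log2 CPM from its mean over the 6 libraries, on a color scale from -3 (blue) to 3 (red), for the 8 endothelial genes tested (above the line) and 15 further endothelial genes (below it). The RvD1 replicate 3 column is darkest for Pecam1 and Ptprb, the vehicle replicate 2 column is darkest for Cdh5 and Tie1, and both are pale for Tek, Flt1, Esam, and S1pr1.

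Since several of the genes were low in the same libraries, the DNA upstream of their start sites was read. The sequence searched, on either strand, was AGGAAG, a longer form that holds the GGAA core of ETS sites. RefSeq windows of 300 bases, from 250 before to 50 after a start site on GRCm38.p6, were at hand for 7 of the 9 genes, with 3 windows for Egfl7 and 1 for each of the others. Pecam1 and Cdh5 had no entry. The 250 bases before the start site are shown 5′ to 3′ on the strand of the gene, with AGGAAG or its reverse complement in capitals. They are given for Sele, Emcn, and Kdr, whose vehicle libraries differed by over 4-fold, and for Flt1, the most even with vehicle. Cldn5, which also differed by over 4-fold with vehicle, is not shown.
Sele, chr1:164047984-164048233, plus strand: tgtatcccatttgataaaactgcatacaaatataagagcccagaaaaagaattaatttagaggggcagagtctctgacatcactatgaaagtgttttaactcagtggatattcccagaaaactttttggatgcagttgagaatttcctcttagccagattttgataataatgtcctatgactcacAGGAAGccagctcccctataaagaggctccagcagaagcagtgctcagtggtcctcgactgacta
Emcn, chr3:137340828-137341077, plus strand: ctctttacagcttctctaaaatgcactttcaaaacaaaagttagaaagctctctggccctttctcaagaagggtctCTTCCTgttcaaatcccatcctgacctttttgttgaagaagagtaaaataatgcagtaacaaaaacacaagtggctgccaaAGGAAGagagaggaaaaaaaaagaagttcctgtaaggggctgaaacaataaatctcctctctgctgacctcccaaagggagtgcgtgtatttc
Kdr, chr5:75978456-75978705, minus strand: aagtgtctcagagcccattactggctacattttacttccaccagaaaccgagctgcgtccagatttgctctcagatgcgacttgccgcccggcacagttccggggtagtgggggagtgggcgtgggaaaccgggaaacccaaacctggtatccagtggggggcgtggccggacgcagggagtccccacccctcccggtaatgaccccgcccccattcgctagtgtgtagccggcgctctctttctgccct
Flt1, chr5:147726012-147726261, minus strand: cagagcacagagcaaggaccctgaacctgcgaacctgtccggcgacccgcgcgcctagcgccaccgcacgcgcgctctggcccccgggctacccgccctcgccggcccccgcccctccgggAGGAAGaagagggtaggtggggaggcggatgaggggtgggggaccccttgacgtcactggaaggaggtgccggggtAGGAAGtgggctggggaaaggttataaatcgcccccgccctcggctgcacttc
AGGAAG was found in 5 of the 9 windows and in 35.35% of the 32851 windows of that length in the whole table. Sele held it once, with its first base 65 bases before the start site. Emcn held it at 93 bases before the start and on the opposite strand at 174, and Flt1 at 129 and 53 bases before the start. The 3 windows of Egfl7, whose vehicle libraries differed by less than 4-fold, held 3, 2, and 0 matches. Kdr, Tek, and Cldn5 held no match. An NF-κB motif, read as GGG, any 2 bases, and TTTCC, was in 0 of the 9 windows and in 1.63% of all windows. Only this form was read, so 0 matches do not show that the windows, that of Sele included, lack NF-κB sites. The E-box CAGCTG, of the type bound by MyoD in muscle cells, was in 1 of the 9, a window of Egfl7, and in 16.3% of all windows. A match is a run of letters and not a measured binding site.

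RvD1 and vehicle were compared across all genes by the edgeR quasi-likelihood test with Benjamini-Hochberg adjustment. No gene passed an adjusted p of 0.05, so 0% of the 14494 genes tested were called, and 0 of the 8 endothelial genes. At an unadjusted p under 0.05 there were 503 genes (3.47%) and 0 of the 8. DESeq2 and limma-voom also called 0 endothelial genes after adjustment. In DESeq2, 1 of the 8, Kdr, had an unadjusted p under 0.05, as had 474 of all 14494 genes tested. Sele, which the count filter left out, was 1 of 12 genes called by edgeR among 26641 when no filter was used. Vehicle replicate 2 had 0 counts of it.

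The log2 fold changes (RvD1 minus vehicle) were below 0 for 7 of the 8 genes, as they were for 46.5% of all genes tested, and 4 were below -1, as were 0.483% of all genes. They were -1.74 (SE 0.83) for Kdr, -1.42 (SE 0.82) for Pecam1, -1.13 (SE 0.95) for Cdh5, and -1.02 (SE 0.74) for Emcn. Cldn5 was at -0.88 (SE 0.64), Egfl7 at -0.37 (SE 0.38), and Flt1 at -0.15 (SE 0.30). Tek was the gene above 0, at 0.17 (SE 0.41). The standard errors of Tek, Egfl7, and Flt1 were the smallest. The median was -0.95 for the 8 genes and 0.01 for all genes tested, and in limma-voom it was -0.52 for the 8 genes and 0.04 for all genes tested. The 0.483% covers genes of every abundance, and the 4 genes below -1 varied between replicates more than the trend. In limma-voom Kdr, Pecam1, and Emcn stayed below -1 and Cdh5 was at -0.41. In limma on log2(TPM + 1) the lowest of the 8, Pecam1, was at -0.75.

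Vehicle replicate 3 carried much of that direction. Without it, 5 of the 8 genes were below 0 and 3 above, with a median of -0.26, and Cdh5 moved to -0.16. Of all 14858 genes tested there, 6948 were below 0. Without vehicle replicate 2, which lay with the RvD1 libraries, all 8 genes were below 0, as were 7084 of all 14954 genes tested. Sele passed the count filter there only through vehicle replicates 1 and 3, where it was high, so its sign is no support. With Sele included, the median of the 9 was -1.41. Without RvD1 replicate 2 the median of the 9, again with Sele included, was -1.45. There 8 of 9 were below 0, as were 7044 of all 14882 genes tested. Sele again passed the filter only through vehicle replicates 1 and 3, so its sign is no support there either. Tek turned to -0.47 without RvD1 replicate 1. The groups of all 9 genes overlapped in TPM. For comparison, though in TMM-scaled CPM and not in TPM, RvD1 libraries lay wholly below vehicle for 4.83% of the genes tested and wholly above for 4.80%.

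**Figure D3:**
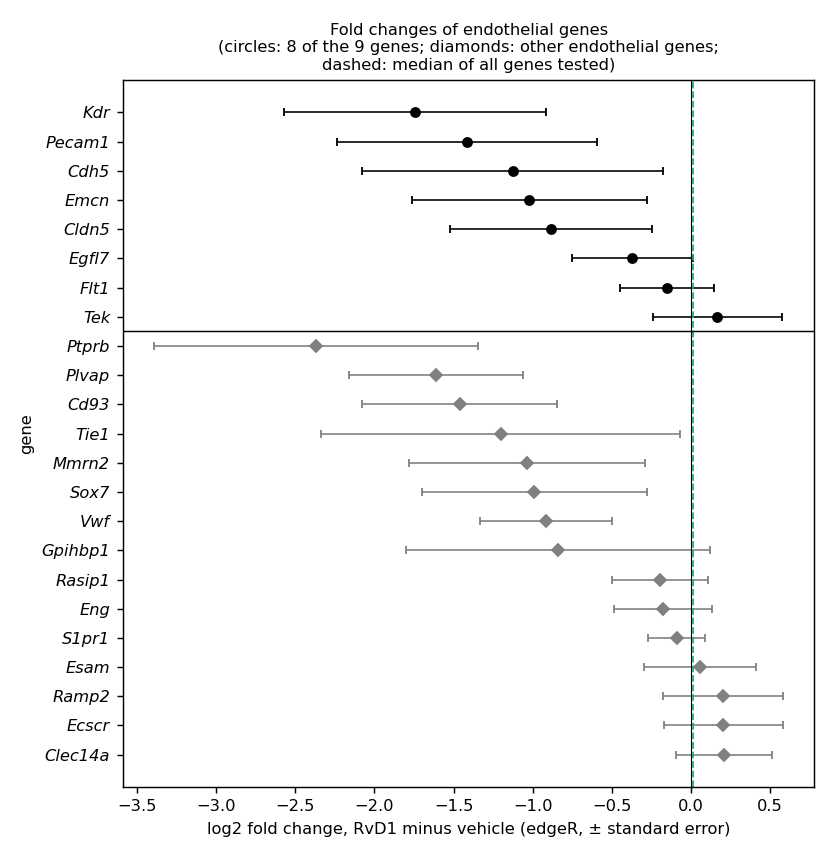
Log2 fold change (RvD1 minus vehicle, horizontal axis) with its SE from edgeR for the 8 endothelial genes tested (circles) and 15 further endothelial genes (diamonds). The dashed line is the median of all genes tested, at 0.01. Kdr, at -1.74, is the farthest to the left of the circles, Tek, at 0.17, is to the right of 0, and the bars are longest for Ptprb, Tie1, Gpihbp1, and Cdh5.

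A second list of 22 endothelial genes also held uneven and even members. Of the 15 tested, 0 passed adjustment, 11 log2 fold changes were below 0 and 4 above, and the median was -0.84, against -0.31 in limma-voom. Ptprb, which encodes the endothelial phosphatase VE-PTP that acts on TIE2 and VE-cadherin, had 13, 24, and 0 expected counts with RvD1 and 48, 4, and 87 with vehicle, which gave a log2 fold change of -2.37 (SE 1.02). Plvap, which encodes the diaphragm protein of fenestrae and caveolae, had 38, 52, and 23 with RvD1 and 93, 23, and 145 with vehicle, which gave a log2 fold change of -1.61 (SE 0.55). As for Kdr, vehicle replicate 2 lay among the RvD1 libraries for both genes.

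Cd93, which encodes a transmembrane glycoprotein of endothelial and myeloid cells, had 27, 43, and 5 expected counts with RvD1 and 29, 30, and 93 with vehicle, and its log2 fold change was -1.46 (SE 0.62). These 3 genes had unadjusted p of 0.0464, 0.0170, and 0.0422 in edgeR and an adjusted p of 0.971 each. Without vehicle replicate 3 the list had 7 below 0 and 8 above, with a median of 0.01. Without vehicle replicate 1 it had 12 below 0 and 3 above, with a median of -0.69. Without each other replicate 18 genes of the list were tested, so the genes are not the same. Of these, 13 to 18 were below 0, with medians from -1.42 to -0.67. Over all genes tested in those fits, 7044 to 7320 were below 0, with medians from 0.001 to 0.016.

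Of the genes nearer 0, Ramp2, a coreceptor for adrenomedullin, was the most abundant gene of the second list, at 28.7 ± 17.1 TPM in the RvD1 group and 23.5 ± 8.36 TPM in the vehicle group (SD, n = 3 each). Esam, a junctional adhesion molecule, was at 6.25 ± 1.34 and 4.74 ± 2.06 TPM, and S1pr1, a receptor for sphingosine 1-phosphate, at 4.94 ± 0.655 and 4.95 ± 0.535 TPM. Their log2 fold changes were 0.20 (SE 0.38), 0.06 (SE 0.35), and -0.09 (SE 0.18). Ecscr and Clec14a, at 0.20 (SE 0.38) and 0.21 (SE 0.31), were the other genes highest in the list.

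By library, in CPM, 13 of these 22 genes were lowest in RvD1 replicate 3 and 16 were highest in vehicle replicate 3. RvD1 replicate 3 had 0 counts for 7 of them and vehicle replicate 2 for 3. Those 3, Erg, Sox17, and Myct1, were at 0 in both libraries and are counted to RvD1 replicate 3. Of the 15 tested, RvD1 replicate 3 was the lowest RvD1 library for 10, against 31.7% of all genes tested, vehicle replicate 2 was the lowest vehicle library for 12, against 27.9%, and 8 had the combination of lowest libraries seen for Pecam1, Cdh5, Kdr, Emcn, and Egfl7. None of the 10 mural cell markers, the junction partners tested, or the 10 MuSC markers had it. Over all genes tested it held for 1305 of 14494, so its absence from lists this short says little. It held for 1 of 6 fibro-adipogenic markers tested, 1 of 6 leukocyte adhesion genes, and 1 of 9 markers of vessel types. Of 12 VEGF, angiopoietin, and apelin genes tested, 2 had it, Aplnr and Tie1, which is also in the second list. The summed level of the second list was 56.6 ± 21.9 TPM in the RvD1 group and 58.0 ± 13.1 TPM in the vehicle group (SD, n = 3 each), led by RvD1 replicate 1 at 81.9 TPM, where Ramp2 alone was 48.4 TPM.

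Of the ligands and partners of these receptors, Vegfa, Nrp1, and Vegfb had higher levels in TPM than Kdr, Flt1, or Tek. Vegfa, the ligand of VEGFR1 and VEGFR2, was at 52.3 ± 4.38 TPM in the RvD1 group and 43.6 ± 2.24 TPM in the vehicle group (SD, n = 3 each). Its groups did not overlap in TPM but did in TMM-scaled CPM, and its log2 fold change in counts was 0.17 (SE 0.12). Nrp1, a VEGF coreceptor, was at 53.0 ± 6.12 and 47.2 ± 6.13 TPM, and Vegfb at 27.0 ± 2.69 and 24.5 ± 1.70 TPM. Of 12 genes tested from the 13 VEGF, angiopoietin, and apelin genes, 6 were below 0 and 6 above, with 0 past adjustment. Tie1, the companion receptor of TIE2, had 20, 23, and 0 expected counts with RvD1 and 11, 1, and 62 with vehicle, a pattern unlike that of Tek.

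Of the leukocyte adhesion genes, 6 of 10 were tested, with 2 below 0, 4 above, and 0 past adjustment. Cd44, Vcam1, and Glg1, an E-selectin ligand, led the list at 239 ± 6.81, 201 ± 56.1, and 105 ± 11.3 TPM (SD, n = 3) with RvD1 and 236 ± 8.77, 177 ± 20.4, and 91.4 ± 10.1 TPM with vehicle. Of the partners of the junction proteins the 3 most abundant were Ctnnb1, Jam3, and Ctnnd1. Ctnnb1, which encodes β-catenin and binds VE-cadherin as well as other cadherins, was at 492 ± 22.4 TPM in the RvD1 group and 448 ± 20.4 TPM in the vehicle group. Jam3 was at 128 ± 26.2 and 121 ± 15.1 TPM, and Ctnnd1, which encodes p120-catenin, at 67.2 ± 10.6 and 60.2 ± 6.11 TPM. Of the 8 junction partners tested, 3 were below 0 and 5 above, with a median of 0.03 and 0 past adjustment.

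Several of the 9 genes are also transcribed outside endothelium, Pecam1 in leukocytes and platelets and Tek in some perivascular and blood-forming cells, so markers of such cells were summed in the same libraries. The 15 leukocyte markers summed to 43.2 to 65.8 TPM with RvD1 and 58.9 to 97.8 TPM with vehicle, highest in vehicle replicates 3 and 1, as for Pecam1. Of the 13 tested, 12 were below 0 and 1 above, with 0 past adjustment. Lyz2, a macrophage and neutrophil lysozyme, was at 23.4 ± 9.41 TPM in the RvD1 group and 45.9 ± 17.0 TPM in the vehicle group (SD, n = 3 each), Cd68 at 7.56 ± 2.89 and 8.58 ± 2.13 TPM, and Laptm5 at 6.14 ± 0.821 and 6.18 ± 1.11 TPM. The combination of lowest libraries seen for Pecam1 was present for 3 of the 13, Adgre1, Cd68, and Lyz2. No leukocyte marker was at 0 in every library.

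Platelet markers summed to 5.61 to 12.7 TPM with RvD1 and 8.75 to 13.4 TPM with vehicle, lowest in RvD1 replicate 3 and next lowest in vehicle replicate 2. Pf4, a platelet chemokine, was at 7.10 ± 3.77 and 9.44 ± 2.32 TPM, Itga2b at 2.39 ± 1.37 and 1.72 ± 0.992 TPM, and Ppbp at 0.14 ± 0.122 and 0.283 ± 0.257 TPM. Of the 2 tested, 1 was below 0 and 1 above, and Pf4 had the combination of lowest libraries seen for Pecam1. The 6 red cell genes, led by Hba-a2, Hbb-bs, and Hba-a1, summed to 11.4 to 95.7 TPM with RvD1 and 32.0 to 79.3 TPM with vehicle in a different order of libraries, with RvD1 replicate 2 highest.

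Mural cell markers summed to 326 to 661 TPM with RvD1 and 353 to 458 TPM with vehicle, and RvD1 replicate 1, the library highest for Tek, was highest here too. All 10 were above 0 in log2 fold change, with a median of 0.29 and 0 past adjustment. Acta2, Notch3, and Mcam, the most abundant, were at 0.14 (SE 0.20), 0.02 (SE 0.25), and 0.34 (SE 0.20). The fibro-adipogenic markers, led by Dcn, Lum, and Ly6a, summed to 245 to 568 TPM with RvD1 and 275 to 326 TPM with vehicle, again highest in RvD1 replicate 1. Of the 6 fibro-adipogenic markers tested, 1 was below 0 and 5 above, with 0 past adjustment. The 1 below 0 was Ly6a, at -0.62 (SE 0.20). Ly6a, which encodes Sca-1, a marker excluded in the sort that endothelial cells also carry, was at 21.7 ± 4.14 TPM in the RvD1 group and 32.1 ± 6.89 TPM in the vehicle group. Its groups did not overlap in TPM, and it had the combination of lowest libraries seen for Pecam1. The part of leukocytes, platelets, mural cells, the other cell types, and the MuSCs themselves in the levels of the 9 genes was not tested.

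**Figure D4:**
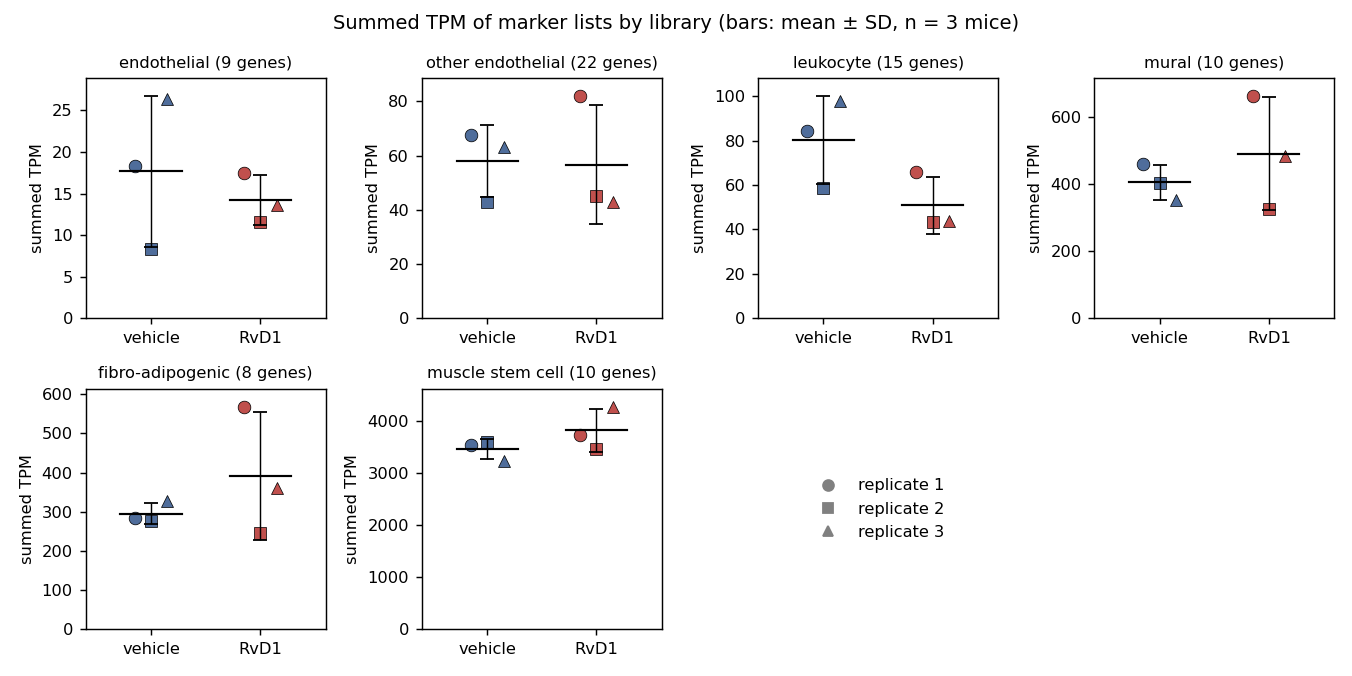
Summed TPM per library of the 9 endothelial genes and of 5 marker lists in the vehicle and RvD1 groups, with marker shapes for the replicate number, lines for the mean, and bars for the SD. The 9 genes and the leukocyte markers are highest in vehicle replicate 3, at 26.4 and 97.8 TPM, and the mural and fibro-adipogenic markers are highest in RvD1 replicate 1.

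The 5 genes whose level over the 6 libraries was most like the summed level of the 9 genes were Pim2, Gdap2, Sfxn2, Slc10a7, and Gm12291, with Pearson r from 0.986 down to 0.977 in log2 CPM. Pim2, which encodes a serine/threonine kinase, had 7.46, 6.66, and 6.32 CPM with RvD1 and 8.17, 6.32, and 8.03 CPM with vehicle, a far smaller range than that of Pecam1 or Kdr. These r values are the highest of the genes tested over 6 points that share the libraries, and no p is given.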

How the data were processed

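RNA was measured by RNA-Seq in sorted MuSCs of 6 mice, with groups and replicate numbers taken from the sample titles. The authors amplified cDNA with a kit that does not keep strand, used STAR 2.5.0a to align reads to mm10, and obtained gene estimates from RSEM. Their deposited expected counts carry no depth scaling. The deposited TPM and FPKM carry the authors' scaling for length and library. After removal of 1 stray header row, 49671 genes remained, of which 22860 had 0 counts in every library.

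Expected counts were rounded and tested with edgeR 4.0.16 in R 4.3.3 (TMM, filterByExpr, quasi-likelihood without robust estimation, Benjamini-Hochberg adjustment at 0.05). Alternatives were DESeq2 1.42.0, limma-voom (limma 3.58.1) with and without 1 surrogate variable (sva 3.50.0) removed, other scaling and filters, limma on log2(TPM + 1) and log2(TPM + 0.1), a replicate block, and each replicate left out. Tests were checked on simulated counts. Count intervals are exact Poisson at 95% and, like the floor of 3 counts, cover counting error only, since reads carry no molecular identifiers.

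The members and all marker lists were chosen with earlier results of these data known. Named in the text are the 9 genes, the 3 genes of highest mean TPM of each other list (1 further list is not reported here), the 3 largest and 3 smallest log2 fold changes of the second endothelial list, and the 5 genes most like the 9. Tie1, Erg, Sox17, Myct1, Adgre1, Pagr1a, Aplnr, Selp, Icam2, Vegfc, and Gja5 were named after their values were seen, as was the order in which genes were called uneven or even.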

Additional observations from a re-analysis of the deposited data

How the results depend on the processing

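The count of endothelial genes called was 0 in the edgeR test as reported and under every alternative except 1. With no filter on low counts 12 of 26641 genes were called, among them 1 of the 9, Sele. It had a log2 fold change of -4.67 (SE 0.96) and an adjusted p of 0.0408 in edgeR, although vehicle replicate 2 had 0 counts of it. Leaving out each replicate gave 0 to 1 genes called, the 1 being Pagr1a without RvD1 replicate 3, and 0 to 0 endothelial genes, with Sele not tested without vehicle replicate 1 or 3. Without vehicle replicate 2, 5 of the 9 had an unadjusted p under 0.05 in edgeR (Pecam1, Sele, Cdh5, Cldn5, and Kdr), as had 284 of all 14954 genes tested. That library is one singled out because these genes were low in it. Sele passed the count filter there only through vehicle replicates 1 and 3, where it was high, so its p is no support. With 1 surrogate variable removed by limma-voom 0 genes were called. The causes were not tested.

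Over 16 alternatives the log2 fold changes of Pecam1, Cdh5, Kdr, Cldn5, and Emcn stayed below 0, the ranges of Pecam1 and Kdr being -1.88 to -0.75 and -2.28 to -0.43. Those of Tek, Egfl7, and Flt1 changed sign in 3 alternatives each. The log2 ratio of the summed TPM was -0.31, -0.36 in FPKM and -0.56 in TMM-scaled CPM, and between -0.65 without vehicle replicate 2 and 0.09 without vehicle replicate 3. With the replicate number as a block, edgeR called 0 genes, with a smallest adjusted p of 0.791, and 0 of the 8 endothelial genes tested. Libraries of the same number did not all deviate together (r of 0.310, -0.0007, and 0.126), so the number was not taken as a pairing. Genes with a few counts in a library, such as Sele, Cdh5, and Emcn, are limited by depth.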

Other observations

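Aplnr, which encodes the apelin receptor, had 16, 28, and 5 expected counts with RvD1 and 53, 4, and 165 with vehicle, and Selp, which encodes P-selectin, had 4.99, 11.6, and 22 with RvD1 and 29, 17, and 75 with vehicle. Their log2 fold changes were -2.59 (SE 0.96) and -1.91 (SE 0.69), each with an adjusted p of 0.971 in edgeR, and both groups overlapped for both genes. Icam2, an adhesion molecule of resting endothelium, was at 0.60 ± 0.217 TPM in the RvD1 group and 2.03 ± 1.04 TPM in the vehicle group (SD, n = 3 each), and Vegfc, a ligand of lymphatic growth, at 7.13 ± 0.280 and 9.14 ± 1.83 TPM, both without overlap in TPM. In TMM-scaled CPM the groups of Vegfc did overlap. These genes were picked after their values were seen.

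Of the 13 genes that mark arteries, veins, and lymphatics, 9 were tested, with 3 below 0, 6 above, and 0 past adjustment. Gja5, an arterial connexin, was at -1.74 (SE 0.54) in log2 fold change. It had 2, 8.67, and 6 expected counts with RvD1 and 12, 17.4, and 15.0 with vehicle. It passed the count filter only through the vehicle libraries, where it was high, so its fold change is no support. The most abundant of the list, Pdpn, Hey1, and Efnb2, were at 0.01 (SE 0.12), -0.07 (SE 0.15), and 0.06 (SE 0.12). Pdpn, a lymphatic marker also made by stromal cells, was at 41.0 ± 5.84 TPM in the RvD1 group and 38.2 ± 2.79 TPM in the vehicle group (SD, n = 3 each).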
